A study of Caenorhabditis elegans with 48 samples.

Results

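Expression in starved Caenorhabditis elegans larvae after 48 h of L1 arrest was compared with expression after 24 h, that is, the change over the second day of the arrest. The comparison held 8 of the 48 mRNA-seq libraries of the series, 4 at 48 h and 4 at 24 h, chosen by their labelled time and paired by replicate number (1, 5, 6 and 8). Both groups were the wild-type strain N2, hatched from embryos into buffer without food and never fed, and they differed in the time spent in arrest and in no treatment or genotype. Time was counted from the nominal hatch, and the other 10 of the 12 time points lay between -2 h and 12 h or between 96 h and 288 h. RNA came from whole larvae of a culture, so each library pooled many animals and all their tissues. Per the study's methods, 3 of the 4 replicates followed 1 culture each through time, whereas 1 replicate, whose number is not given, was made up from several cultures. No fed larvae entered the comparison, so a change is one between 2 durations of starvation.

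L1 arrest is the state in which newly hatched larvae wait for food. Without nutrients, insulin-like signalling is low, the FoxO factor DAF-16 is active, cell divisions and the moulting cycle do not begin, and the larvae live on stored fat and glycogen while they keep moving and sensing. The kinase AMPK, which responds to low cellular energy, and the kinase TOR, which promotes growth when amino acids are present, are among the regulators known to matter for survival of this state. The larva is a complete animal with an intestine, muscle, a nervous system, a cuticle-secreting hypodermis and a pair of primordial germ cells, and a whole-animal level adds up all of them.

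The tables held raw read counts per gene. Without the 22 ribosomal RNA genes, the 8 libraries held 8507600 to 13163245 counts. Ribosomal RNA took 2.66 to 8.28% of the gene counts at 48 h and 2.47 to 29.2% at 24 h. The highest share stood in the 24 h library of replicate 8, and 37 of the 151 genes chosen for naming were not called without that library. Leaving out any 1 of the 8 libraries lost 30 to 55 of the 151 calls, most of them without the 24 h library of replicate 1. Levels are CPM, the share of a gene in the counts without ribosomal RNA, scaled to a fixed total with TMM factors, so each level is relative to the other mRNAs of the same larvae. In such bulk samples fewer cells of a type and less RNA per cell cannot be told apart. Markers of the expected tissues were present: 10 intestinal markers summed to 10129.7 to 13723 CPM at 48 h and 13654 to 14766 CPM at 24 h, and 8 body wall muscle markers to 12232 to 14173 CPM at 48 h and 13754 to 15654 CPM at 24 h. Of 10 markers of embryos before hatching, the sum was 4.82 to 7.10 CPM at 48 h and 3.95 to 11.4 CPM at 24 h. Of 39 sperm markers 2 passed the filter on low counts and 13 had no count in any of the 8 libraries. The 10 markers of adult hermaphrodites and oocytes summed to 37.3 to 54.1 CPM at 48 h and 28.01 to 42.7 CPM at 24 h.

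Over the second day of arrest, 1102 of 17257 genes tested changed at a false discovery rate (FDR, the Benjamini-Hochberg adjusted p) under 0.05. A change is called here by that threshold, and the test was edgeR's quasi-likelihood F test with the replicate number as a block. At 48 h, 634 genes were higher (3.67% of the genes tested) and 468 were lower (2.71%), 6.39% in either direction. Of the 1102, 1085 moved the same way in all 4 replicate pairs. The rises were small, with a median log2 fold change of 0.43, and the falls were larger, with a median of -0.73. At least 2-fold changes were called for 28 genes that rose and 150 that fell. The 4 libraries of one time point lay fully above or below those of the other for 2003 of the genes tested (11.6%), among them 524 of the 634 that rose and 359 of the 468 that fell.

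How many genes passed depended on the treatment of the replicates and of the library totals. Without the replicate block 565 genes were called, 335 higher and 230 lower, and all 565 were among the 1102. With the counts scaled to library totals alone, with no TMM factors, the median over all genes tested was -0.10 on the log2 scale, against 0.01 with them, and the split turned to 331 higher and 947 lower. Without a filter on low counts it was 440 higher and 664 lower. Leaving out the 24 h library of replicate 1 left 666 calls, and leaving out the 24 h library of replicate 8 left 786. Leaving out the 48 h library of replicate 8 left 429 higher and 306 lower. None of the 1102 genes had the opposite sign under any alternative in which it was tested. With each of the 8 libraries left out in turn, 287 of the 634 rises and 196 of the 468 falls were called every time. Every gene said below to have risen or fallen passed the threshold in the fit with all libraries.

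**Figure D1:**
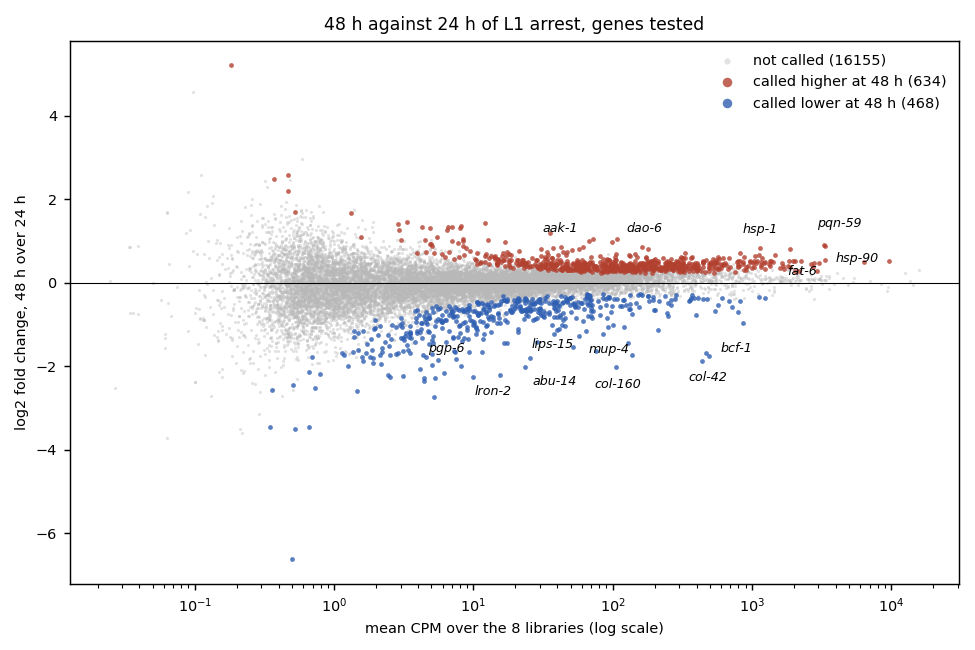
Each point is 1 of the 17257 genes tested, with its mean CPM over the 8 libraries on a log scale on the x axis and the log2 fold change of 48 h over 24 h on the y axis, red for the 634 genes called higher at 48 h and blue for the 468 called lower. The rises form a narrow band with a median of 0.43 that reaches the most abundant mRNAs, whereas the falls reach lower, with a median of -0.73. The outermost points at the left are genes with counts near 0 in 1 of the groups, whose fitted fold change depends on the prior count of the fit.

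Of the 68 gene lists examined, the cytosolic chaperones had the most members that rose, followed by the aminoacyl-tRNA synthetases. Cytosolic chaperones bind newly made or unfolded proteins, and of 45 tested, 12 rose and none fell (median log2 fold change of the list 0.13, against 0.01 over all genes tested). hsp-90, which encodes the cytosolic Hsp90 chaperone, had 4919, 4231, 3881 and 4291 CPM at 48 h, against 2557, 2245, 2219.96 and 2376 CPM at 24 h, values being listed here and below in the order of replicates 1, 5, 6 and 8. Every 48 h library was far above every 24 h library (log2 fold change 0.88 ± 0.09 SE, adjusted p = 9.9e-10). hsp-1, the constitutive Hsc70 chaperone, had 1546, 1561, 1358 and 1409 CPM at 48 h, against 858, 817, 865 and 751 CPM at 24 h, again without overlap (log2 fold change 0.84 ± 0.11 SE, adjusted p = 1.7e-06). The heat-inducible hsp-70 was much rarer and rose more in relative terms, averaging 11.7 ± 1.11 CPM at 48 h and 4.69 ± 1.49 CPM at 24 h (log2 fold change 1.37 ± 0.32 SE, adjusted p = 0.0046). Of the 8 subunit genes of the chaperonin CCT, the ring that folds actin and tubulin, 7 rose. cct-4 had 916, 811, 755 and 839 CPM at 48 h, against 573, 534, 527 and 549 CPM at 24 h (log2 fold change 0.60 ± 0.08 SE, adjusted p = 9.0e-07), and cct-6 had 474, 409.6, 415 and 447 CPM at 48 h, against 319, 279, 280.5 and 288 CPM at 24 h (log2 fold change 0.58 ± 0.07 SE, adjusted p = 1.2e-07). The log2 fold changes of the other risers of the ring were 0.35 ± 0.08 for cct-1, 0.56 ± 0.07 for cct-2, 0.44 ± 0.07 for cct-3, 0.44 ± 0.07 for cct-5 and 0.52 ± 0.08 for cct-7. The remaining subunit gene, cct-8, averaged 97.9 ± 7.31 CPM at 48 h and 88.9 ± 8.24 CPM at 24 h and did not pass (log2 fold change 0.14 ± 0.09 SE, adjusted p = 0.47). The co-chaperone genes sti-1 and dnj-12 rose by 0.38 ± 0.11 and 0.27 ± 0.07 on the log2 scale. Without the replicate block 10 of the 12 were called, and 10 were called with each single library left out, sti-1 and dnj-12 being the exceptions.

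Among the small heat shock proteins, which hold unfolded proteins in solution, 3 of 15 rose and 1 fell (median -0.07), and none was called without the replicate block. sip-1 averaged 31.9 ± 7.24 CPM at 48 h and 20.9 ± 3.8997 CPM at 24 h (log2 fold change 0.60 ± 0.15 SE, adjusted p = 0.0066, 0.079 without the block). The stress-inducible hsp-16.21 and hsp-16.41 averaged 11.5 ± 3.78 CPM at 48 h and 5.49 ± 1.50 CPM at 24 h, and 6.02 ± 0.938 CPM at 48 h and 2.53 ± 1.32 CPM at 24 h, in that order. The hsp-16 genes are close copies of one another, so reads may have been split between them. hsp-25 was the member that fell (log2 fold change -0.31 ± 0.09 SE, adjusted p = 0.028). In the endoplasmic reticulum, 3 of 21 genes of the unfolded protein response and of folding rose and none fell (median 0.12): crt-1, the calcium-binding chaperone calreticulin, had 3868, 2758, 2580.03 and 3121 CPM at 48 h, against 2639.8, 2125, 2148 and 2554 CPM at 24 h (log2 fold change 0.38 ± 0.09 SE, adjusted p = 0.004), pdi-3, a disulfide isomerase, rose by 0.26 ± 0.08 and sel-11, a ubiquitin ligase that clears misfolded proteins, by 0.38 ± 0.10 on the log2 scale. None of these 3 was called with each single library left out. hsp-6, the mitochondrial Hsp70, averaged 1163 ± 127 CPM at 48 h and 902 ± 61.6 CPM at 24 h (log2 fold change 0.37 ± 0.11 SE, adjusted p = 0.03, 0.085 without the block).

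Some genes that charge tRNAs with amino acids rose. Of 33 aminoacyl-tRNA synthetase genes tested, 11 rose and none fell, 28 had a positive log2 fold change and the median was 0.22. Without the block 7 were called, without TMM factors 5, and 8 with each single library left out. rars-1, the arginyl enzyme, had 698, 614, 653 and 653 CPM at 48 h, against 435, 440.3, 462 and 453 CPM at 24 h, so that all 48 h libraries were above all 24 h libraries (log2 fold change 0.55 ± 0.08 SE, adjusted p = 1.7e-05). lars-1, the leucyl enzyme, averaged 1456 ± 73.6 CPM at 48 h and 1035 ± 23.98 CPM at 24 h (log2 fold change 0.49 ± 0.08 SE, adjusted p = 5.5e-05). kars-1, the lysyl enzyme, averaged 80.8 ± 2.77 CPM at 48 h and 59.7 ± 8.18 CPM at 24 h (log2 fold change 0.44 ± 0.09 SE, adjusted p = 0.00054), and mars-1, the methionyl enzyme, averaged 111 ± 4.04 CPM at 48 h and 83.7 ± 6.05 CPM at 24 h (log2 fold change 0.41 ± 0.09 SE, adjusted p = 0.0021). The others that rose were aars-2, cars-1, hars-1, iars-1, sars-1, wars-1 and yars-1, with log2 fold changes between 0.23 for hars-1 and 0.38 for cars-1. None of 65 cytosolic ribosomal protein genes was called in either direction, although 62 had a positive sign. Their log2 fold changes lay between -0.07 and 0.17, with a median of 0.07 that turned to -0.04 without TMM factors. Their summed level was 105289 to 132073 CPM at 48 h and 102698 to 125304 CPM at 24 h. The difference between the synthetase and the ribosomal protein lists was not tested.

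A gene of nuclear import and a gene of RNA polymerase I initiation were among the rises with the smallest p. A few genes of protein turnover also rose. imb-3, a nuclear import receptor of the importin beta family, had 1119, 1025, 935 and 982 CPM at 48 h, against 670.4, 611, 607 and 569 CPM at 24 h (log2 fold change 0.72 ± 0.09 SE, adjusted p = 4.2e-07). tif-1A, an initiation factor of RNA polymerase I, which transcribes ribosomal RNA, had 1486, 1304, 1508 and 1409.97 CPM at 48 h, against 974, 898, 1013 and 915 CPM at 24 h (log2 fold change 0.59 ± 0.07 SE, adjusted p = 2.9e-07). Of 33 proteasome subunit genes, 3 rose, none fell and 32 had a positive sign (median 0.18, and 0.07 without TMM factors). They were rpn-10, a ubiquitin receptor, with 98.96 ± 8.08 CPM at 48 h and 73.2 ± 2.79 CPM at 24 h (log2 fold change 0.43 ± 0.08 SE, adjusted p = 0.0005), rpn-2 (log2 fold change 0.31 ± 0.08 SE, adjusted p = 0.0062) and pas-3 (log2 fold change 0.39 ± 0.09 SE, adjusted p = 0.0032), and rpn-10 alone was called without the block. All 3 were called with each single library left out. Of 28 autophagy genes 2 rose and none fell (median 0.14). epg-6, which acts in the formation of autophagosomes, had 229, 185, 202 and 232 CPM at 48 h, against 141, 138.9, 143 and 161 CPM at 24 h (log2 fold change 0.53 ± 0.08 SE, adjusted p = 9.1e-06), and lgg-2, an Atg8 family protein of the autophagosome membrane, rose by 0.32 ± 0.10 (adjusted p = 0.033, and 0.16 without the block). Its relative lgg-1 averaged 715 ± 61.6 CPM at 48 h and 724 ± 68.1 CPM at 24 h and did not pass (adjusted p = 0.97).

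Of 19 genes of AMPK and TOR signalling, 2 rose and none fell (median 0.10). aak-1, 1 of a pair of genes for the catalytic subunit of AMPK, had 103.9, 81.4, 72.9 and 103.9 CPM at 48 h, against 50.4, 41.3, 42.2 and 46.9 CPM at 24 h. Each 48 h library was well above each 24 h library, and the change was close to 2-fold (log2 fold change 0.99 ± 0.13 SE, adjusted p = 9.0e-07). The other catalytic subunit gene, aak-2, averaged 236 ± 14.3 CPM at 48 h and 233 ± 13.3 CPM at 24 h and did not pass (log2 fold change 0.01 ± 0.09 SE, adjusted p = 0.97). let-363, the TOR kinase, averaged 452 ± 45.99 CPM at 48 h and 327 ± 24.1 CPM at 24 h (log2 fold change 0.47 ± 0.11 SE, adjusted p = 0.0061). daf-15, its partner Raptor, averaged 397 ± 34.1 CPM at 48 h and 324 ± 23.3 CPM at 24 h and did not pass (adjusted p = 0.096).

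The remaining large rises came from genes of varied or poorly known roles. pqn-59, which encodes an abundant protein rich in glutamine and asparagine, had 4808, 4383, 3374 and 4771 CPM at 48 h, against 2354, 2348, 2081 and 2399 CPM at 24 h (log2 fold change 0.91 ± 0.10 SE, adjusted p = 8.5e-09). The lowest 48 h library was that of replicate 6, and it was still above every 24 h library. dao-6 had 109, 127, 166 and 178 CPM at 48 h, against 52.8, 55.01, 88.1 and 87.7 CPM at 24 h (log2 fold change 1.05 ± 0.15 SE, adjusted p = 5.1e-06). lmd-4, named for its LysM domain, had 116, 116, 137 and 153 CPM at 48 h, against 41.3, 82.1, 75.6 and 67.5 CPM at 24 h (log2 fold change 0.97 ± 0.19 SE, adjusted p = 0.00049). mfb-1, an F-box protein, had 243, 207, 217 and 247 CPM at 48 h, against 125, 133, 118 and 146 CPM at 24 h (log2 fold change 0.80 ± 0.13 SE, adjusted p = 6.3e-05). agns-1, moe-3 and dach-1 rose by 0.82 ± 0.15, 0.80 ± 0.15 and 0.84 ± 0.20 on the log2 scale. dach-1 was not called when replicate 8 was left out (adjusted p = 0.064). mtl-2, a metallothionein that binds zinc and cadmium, had 93.95, 60.2, 65.3 and 92.9 CPM at 48 h, against 46.7, 31.8, 37.6 and 62.3 CPM at 24 h (log2 fold change 0.84 ± 0.23 SE, adjusted p = 0.016). Its groups overlapped by 1 library on each side, and it was not called without the block (adjusted p = 0.19), without the 24 h library of replicate 5 or of replicate 6 (0.057 and 0.067) or without the 48 h library of replicate 1 (0.14). The zinc transporter genes zipt-9 and zipt-7.2, with mtl-2 the 3 members called of 31 genes of metal handling (median -0.02), rose by 0.30 ± 0.09 and 0.28 ± 0.08.

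**Figure D2:**
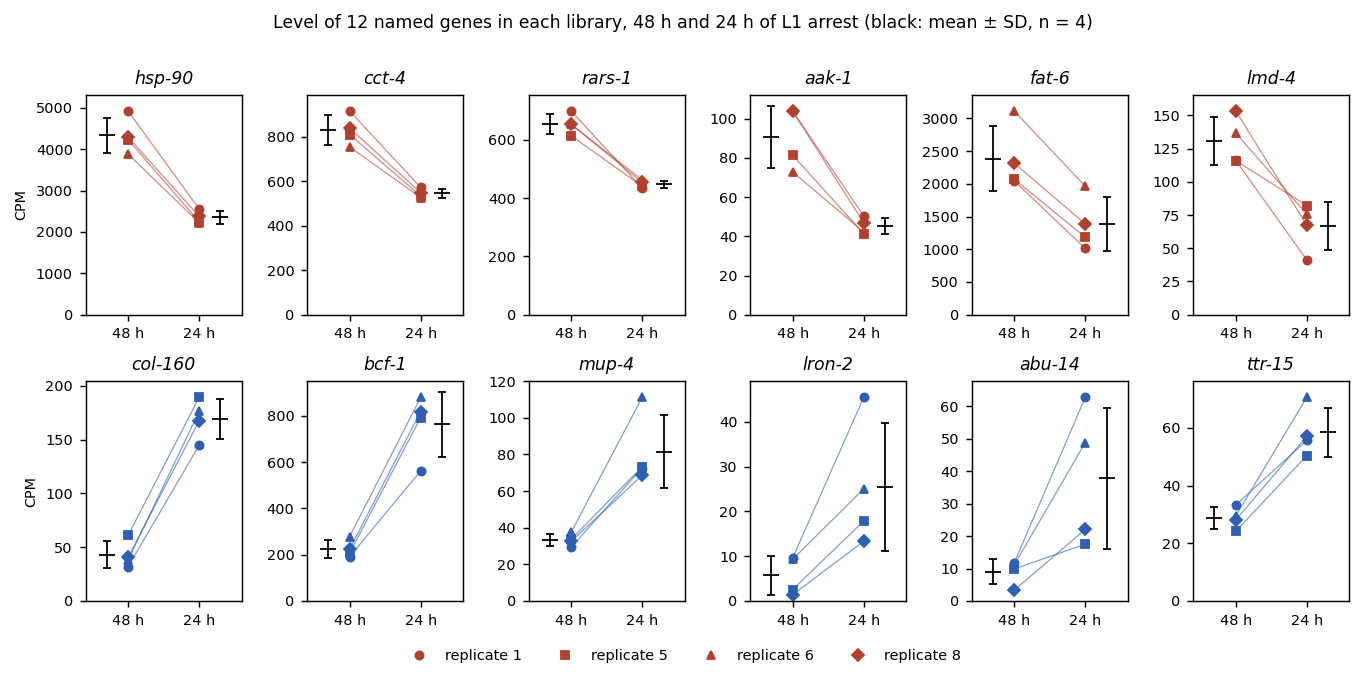
CPM of 12 genes in each of the 8 libraries, with 48 h at the left of each panel and 24 h at the right, 1 marker shape per replicate number, lines joining libraries of the same number and black bars for the mean ± SD of 4 libraries. In the upper row (red) every 48 h library was above every 24 h library of that gene, and in the lower row (blue) every 48 h library was below every 24 h library, although for lron-2 and abu-14 the 24 h libraries differed several-fold among themselves.

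A few lipid genes were called in each direction. fat-6, a delta-9 desaturase that makes oleic acid, had 2046, 2071, 3112 and 2317 CPM at 48 h, against 1012, 1183, 1965 and 1388 CPM at 24 h (log2 fold change 0.80 ± 0.13 SE, adjusted p = 3.8e-05). Replicate 6 was the highest at both times, and each replicate rose. fat-2, the delta-12 desaturase of the next step, had 1732, 1633, 1891 and 1894 CPM at 48 h, against 986, 1113, 1206 and 1224 CPM at 24 h (log2 fold change 0.66 ± 0.12 SE, adjusted p = 0.00035), and elo-1, an elongase of polyunsaturated fatty acids, rose by 0.42 ± 0.11 (adjusted p = 0.015, and 0.16 without the block). With dgat-2, which averaged 1.93 ± 0.527 CPM at 48 h and 4.00 ± 0.899 CPM at 24 h (log2 fold change -1.02 ± 0.27 SE, adjusted p = 0.013), these were the 4 called of 19 genes of fatty acid synthesis, desaturation and elongation (median -0.03). nhr-80, a nuclear receptor that promotes delta-9 desaturase expression, had 56.99, 60.2, 59.3 and 58.5 CPM at 48 h, against 28.2, 36.4, 36.7 and 39.8 CPM at 24 h, without overlap (log2 fold change 0.74 ± 0.11 SE, adjusted p = 5.5e-06). Of 22 lipase and lipid breakdown genes (median 0.11) nhr-80 was the 1 that rose, and the lysosomal lipase gene lipl-2 (53.1 ± 6.98 CPM at 48 h and 86.2 ± 19.4 CPM at 24 h, log2 fold change -0.68 ± 0.15 SE, adjusted p = 0.0034) and ech-1.1 fell. As shares of that list, 4.5% rose and 9.1% fell, against 3.67% and 2.71% of all genes tested. lips-15, a lipase-related gene, had 34.2, 26.2, 57.1 and 31.1 CPM at 48 h, against 121, 78.9, 158 and 102 CPM at 24 h (log2 fold change -1.64 ± 0.26 SE, adjusted p = 2.6e-05).

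Of the lists examined, the collagens had the most members that fell, but theirs was a large list and their share was not the largest. A larger share fell in several smaller lists. Among these were the transthyretin-related family (12 of 48), the targets of DAF-16 and of stress (4 of 16) and the V-ATPase subunits (4 of 21). The muscle thin filament list (6 of 34) and the abu and pqn genes (10 of 59) were others. Collagens are the main proteins of the cuticle that the hypodermis secretes, and of 178 tested, 19 fell and none rose (median -0.19, and summed over the genes found 2581 to 3658 CPM at 48 h and 4648 to 5467 CPM at 24 h). Without the block 14 were called, and 13 with each single library left out. col-160 had 31.9, 60.96, 38.04 and 40.5 CPM at 48 h, against 145, 189, 176 and 167 CPM at 24 h, the highest 48 h library, that of replicate 5, standing far below the lowest 24 h library (log2 fold change -2.01 ± 0.18 SE, adjusted p = 2.3e-10). col-42 had 211, 251, 144 and 163 CPM at 48 h, against 751, 704, 614 and 691 CPM at 24 h (log2 fold change -1.88 ± 0.22 SE, adjusted p = 1.0e-07). col-98 had 67.7, 66.1, 63.8 and 58.7 CPM at 48 h, against 204, 199.97, 215 and 226 CPM at 24 h, with replicates close to each other at both times (log2 fold change -1.73 ± 0.19 SE, adjusted p = 9.6e-09). col-103 had 73.5, 83.4, 51.3 and 74.9 CPM at 48 h, against 196, 180.4, 194 and 179 CPM at 24 h (log2 fold change -1.44 ± 0.19 SE, adjusted p = 1.0e-06), and col-80 had 22.3, 32.6, 21.2 and 31.8 CPM at 48 h, against 63.5, 77.1, 78.8 and 87.02 CPM at 24 h (log2 fold change -1.53 ± 0.19 SE, adjusted p = 2.7e-07). col-159 had 9.89, 18.1, 9.10 and 9.46 CPM at 48 h, against 31.6, 49.7, 40.3 and 37.04 CPM at 24 h (log2 fold change -1.79 ± 0.23 SE, adjusted p = 9.0e-07). Collagen genes of a subfamily can be similar enough to share short reads. The other members that fell were col-3, col-10, col-39, col-91, col-92, col-93, col-94, col-107, col-117, col-144, col-146, col-147 and col-166. The 159 collagen genes not called included both signs, and log2 fold changes of the list ran from -2.57 to 1.57.

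Other genes linked to the cuticle and its attachments fell as well. mup-4, a transmembrane protein of the structures that fix muscle to the cuticle through the hypodermis, had 29.3, 33.7, 37.5 and 32.5 CPM at 48 h, against 72.8, 73.3, 111 and 68.6 CPM at 24 h (log2 fold change -1.28 ± 0.14 SE, adjusted p = 8.5e-09). The 24 h library of replicate 6 was high, and the other 24 h libraries were also about 2-fold above those at 48 h. nas-11, an astacin metalloprotease, had 9.08, 11.8, 5.37 and 9.57 CPM at 48 h, against 23.7, 24.8, 26.04 and 21.6 CPM at 24 h (log2 fold change -1.43 ± 0.17 SE, adjusted p = 1.2e-07). Of 32 astacin genes (median -0.10) 2 fell, nas-11 and nas-14, and 2 rose, nas-24 and nas-39. lron-2, an extracellular leucine-rich repeat protein, had 9.62, 2.54, 9.32 and 1.40 CPM at 48 h, against 45.5, 17.9, 25.05 and 13.3 CPM at 24 h (log2 fold change -2.21 ± 0.33 SE, adjusted p = 1.3e-05). Both times ranged widely, replicates 1 and 6 being the highest at both, but each pair fell. Among the glutamine- and asparagine-rich abu and pqn genes, 10 of 59 fell and 4 rose (median -0.17). abu-14 had 11.8, 9.88, 11.1 and 3.33 CPM at 48 h, against 62.8, 17.5, 48.8 and 22.1 CPM at 24 h (log2 fold change -2.01 ± 0.31 SE, adjusted p = 1.6e-05), with the smallest drop in replicate 5. abu-8, abu-10, pqn-13, pqn-22, pqn-29, pqn-31, pqn-74, pqn-83 and pqn-89 were the others that fell, and pqn-59, pqn-70, pqn-25 and pqn-87 rose. Only 2 of the 10 falls were called without the block, and 2 with each single library left out, abu-14 and pqn-89. Of 88 hedgehog-related and patched genes, many of which act in cuticle formation, 5 fell (grd-3, grd-5, grd-10, grl-4 and ptr-11) and none rose (median -0.08), and 4 of them were called without the block. None of 22 genes of moulting and developmental timing was called (median -0.11). The hypodermal marker elt-1 was the 1 called of 9 hypodermis and seam markers, with 10.6 ± 1.65 CPM at 48 h and 15.7 ± 1.23 CPM at 24 h (adjusted p = 0.011, and 0.064 without the block). The 9 summed to 101 to 127 CPM at 48 h and 117 to 141 CPM at 24 h, and their part in the falls of the cuticle genes was not tested.

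A pair of genes with consecutive sequence names, bcf-1 (F57F4.4) and gfi-1 (F57F4.3), had the smallest p among the falls together with col-160. bcf-1 had 191, 207, 278 and 224 CPM at 48 h, against 562, 792, 879 and 818 CPM at 24 h (log2 fold change -1.75 ± 0.16 SE, adjusted p = 2.3e-10). gfi-1 had 183, 209, 275 and 229 CPM at 48 h, against 537, 757, 816 and 759.7 CPM at 24 h (log2 fold change -1.67 ± 0.16 SE, adjusted p = 9.9e-10). The values of the genes were nearly equal library by library. Reads with up to 2 genomic locations were kept and placed at 1 of them, so these 2 genes may share reads and their changes are not counted here as independent. tag-293 had 21.4, 13.1, 14.6 and 13.98 CPM at 48 h, against 44.8, 34.4, 50.01 and 38.2 CPM at 24 h (log2 fold change -1.42 ± 0.15 SE, adjusted p = 8.5e-09). Transthyretin-related genes, a large family of small secreted proteins, were called only as lower, 12 of 48, with 12 positive signs among the other 36 and a list median of -0.34. ttr-15 had 33.3, 24.2, 29.5 and 28.1 CPM at 48 h, against 55.6, 50.4, 70.6 and 57.1 CPM at 24 h (log2 fold change -1.02 ± 0.18 SE, adjusted p = 0.00012). ttr-24, ttr-5 and ttr-45 averaged 101 ± 7.47 CPM at 48 h and 173 ± 22.1 CPM at 24 h, 30.02 ± 7.17 CPM at 48 h and 53.1 ± 9.93 CPM at 24 h, and 7.05 ± 2.18 CPM at 48 h and 13.3 ± 1.97 CPM at 24 h, in that order. Without the block 5 of the 12 were called, and 8 with each single library left out.

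Genes of the intestine and of transport across membranes fell in smaller numbers. The V-ATPase pumps protons into the gut lumen and into lysosomes, and 4 of its 21 subunit genes fell, none rose and 2 had a positive sign (median -0.10, and 9 called lower without TMM factors). vha-6, the subunit of the apical membrane of the intestine, had 605, 529, 569 and 599 CPM at 48 h, against 816, 853, 898 and 875 CPM at 24 h (log2 fold change -0.58 ± 0.13 SE, adjusted p = 0.003). vha-15, vha-17 and vha-3 fell by 0.37, 0.39 and 0.40 on the log2 scale, and vha-6 and vha-15 were called without the block. Of 23 aquaporins and transporters of peptides and sugars, 3 fell and none rose (median -0.13), and these 3 were called without the block and with each single library left out. aqp-2, an aquaporin, had 471, 438, 455 and 481 CPM at 48 h, against 613, 679.7, 747 and 660.5 CPM at 24 h (log2 fold change -0.54 ± 0.10 SE, adjusted p = 0.00049). aqp-10 fell by 0.59 (adjusted p = 0.00041) and swt-3, a sugar transporter gene, by 0.63 (adjusted p = 0.0043) on the log2 scale. pgp-6, an ABC transporter of the P-glycoprotein family, had 6.32, 4.31, 7.02 and 3.76 CPM at 48 h, against 30.3, 7.71, 20.4 and 12.05 CPM at 24 h, with a wide spread at 24 h (log2 fold change -1.65 ± 0.32 SE, adjusted p = 0.00049). Of 24 gut protease genes (median -0.05), asp-13 and cpr-5 fell and cpr-2 rose. vha-6 was also the 1 called of the 10 intestinal markers, 4 of which had a positive sign. Their summed level, given above, overlapped between the times, and its part in these falls was not tested.

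The detoxification genes called mostly fell, and immune families moved in both directions. Of 78 cytochrome P450 genes 7 fell and 1 rose (median -0.21), of 66 UDP-glucuronosyltransferase genes 7 fell and none rose (median -0.06), and of 46 glutathione S-transferase genes 5 fell and 2 rose (median -0.14). Without the 24 h library of replicate 8, 2 of the 7 P450 falls were called. cyp-13A5 averaged 11.3 ± 1.62 CPM at 48 h and 18.9 ± 1.22 CPM at 24 h (log2 fold change -0.74 ± 0.17 SE, adjusted p = 0.0043), and cyp-13A3, cyp-13A7 and cyp-13A10 of the same subfamily were also called lower. None of these 3 was called without the 24 h library of replicate 8, and cyp-13A10 had 5.79, 5.48, 7.24 and 10.1 CPM at 48 h, against 14.5, 11.6, 12.9 and 27.1 CPM at 24 h (adjusted p = 0.0094, and 0.18 without that library). These copies are alike and may share reads. ugt-29 averaged 6.63 ± 2.47 CPM at 48 h and 14.1 ± 5.24 CPM at 24 h (log2 fold change -1.07 ± 0.27 SE, adjusted p = 0.0078, 0.056 without the block), and none of the 7 UDP-glucuronosyltransferase calls held with each single library left out. gst-13 averaged 12.96 ± 2.29 CPM at 48 h and 21.5 ± 1.83 CPM at 24 h (log2 fold change -0.72 ± 0.16 SE, adjusted p = 0.002), whereas gst-1 averaged 64.1 ± 7.74 CPM at 48 h and 46.02 ± 4.91 CPM at 24 h (log2 fold change 0.48 ± 0.10 SE, adjusted p = 0.0021). Of 171 C-type lectin genes 4 rose and 3 fell (median -0.04), both shares below those of all genes tested. clec-1 had 45.2, 50.98, 67.1 and 39.996 CPM at 48 h, against 111, 84.7, 153 and 128 CPM at 24 h (log2 fold change -1.23 ± 0.19 SE, adjusted p = 2.1e-05), and clec-62 had 138, 135, 109 and 142 CPM at 48 h, against 70.03, 81.02, 78.8 and 92.7 CPM at 24 h (log2 fold change 0.70 ± 0.14 SE, adjusted p = 0.00062). Of the 6 genes that fell in the neuropeptide-like list, 5 were of antimicrobial families, cnc-3, cnc-10 and the nlp genes named next. The antimicrobial peptide genes nlp-27, nlp-28 and nlp-29, neighbours expressed in the epidermis, fell by 0.66, 0.76 and 0.77 on the log2 scale (adjusted p = 0.022, 0.015 and 0.024), and nlp-28 alone was called without the block. None of 11 lysozyme genes tested was called (median -0.18).

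The muscle genes called came mostly from the list of thin filament, attachment and calcium genes, actins among them. Of 34 genes of the thin filament, of muscle attachment and of calcium handling 6 fell and 1 rose (median -0.13, with 13 lower without TMM factors and 2 without the 24 h library of replicate 8), whereas none of 14 thick filament genes was called (median 0.03, and -0.09 without TMM factors). The difference between the lists was not tested. tnt-2, a troponin T, averaged 124 ± 20.5 CPM at 48 h and 183 ± 21.5 CPM at 24 h (log2 fold change -0.58 ± 0.18 SE, adjusted p = 0.032), and dim-1 averaged 67.3 ± 4.76 CPM at 48 h and 90.9 ± 11.4 CPM at 24 h (log2 fold change -0.44 ± 0.13 SE, adjusted p = 0.027). act-1, act-3 and act-4 fell and act-2 rose, but actin genes are nearly identical in their coding sequence and reads cannot be assigned to them with certainty. None of the 7 calls was made without the block, and none held with each single library left out. clik-1, a calponin-like muscle protein outside that list, had 161, 188, 198 and 193 CPM at 48 h, against 302, 277, 316 and 331 CPM at 24 h (log2 fold change -0.73 ± 0.12 SE, adjusted p = 2.5e-05). Of the 7 body wall muscle markers tested, clik-1 and tnt-2 fell and no marker had a positive sign (median -0.28). The part of these markers in the falls of the thin filament, attachment and calcium list was not tested.

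Insulin signalling showed few changes. None of 11 genes of the insulin signalling pathway was called (median 0.07, and -0.04 without TMM factors). daf-16 itself averaged 501 ± 58.05 CPM at 48 h and 422 ± 46.3 CPM at 24 h (log2 fold change 0.25 ± 0.11 SE, adjusted p = 0.2). Of 25 insulin-like peptide genes, ins-20 rose and none fell (median 0.09). It averaged 6.94 ± 1.98 CPM at 48 h and 2.79 ± 1.41 CPM at 24 h (log2 fold change 1.32 ± 0.25 SE, adjusted p = 0.00049). Of 16 targets of DAF-16 and of stress, 4 fell and 2 rose (median -0.21). sod-3, a mitochondrial superoxide dismutase widely used as a DAF-16 reporter, averaged 5.65 ± 0.637 CPM at 48 h and 12.31 ± 2.16 CPM at 24 h, without overlap (log2 fold change -1.13 ± 0.28 SE, adjusted p = 0.0069). dod-3 averaged 22.1 ± 3.54 CPM at 48 h and 36.6 ± 7.36 CPM at 24 h (log2 fold change -0.71 ± 0.15 SE, adjusted p = 0.0023), dod-6 and dao-3 fell by 0.36 and 0.39 on the log2 scale, and mtl-2 and sip-1 were the members that rose. sod-3 was the 1 called of 20 antioxidant genes (median -0.01).

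Few neuronal genes were called. None of 30 FMRFamide-like neuropeptide genes was called, although 29 had a positive sign (median 0.24, and 0.13 without TMM factors). Of these 30, 12 were called higher in the fit of the 8 libraries alone with the block, and 2 with upper-quartile factors. Of 84 genes of the nlp, cnc and related neuropeptide-like families, 2 rose (nlp-7 and nlp-51), 6 fell, among them nlp-16, and 53 had a positive sign (median 0.16), against 16 higher and 10 lower in the fit of the 8 libraries alone. Of 30 genes of synaptic release (median 0.06), unc-13, which primes synaptic vesicles, averaged 469.8 ± 48.104 CPM at 48 h and 352 ± 15.96 CPM at 24 h (log2 fold change 0.42 ± 0.11 SE, adjusted p = 0.016), and ida-1, a protein of dense core vesicles, averaged 1119 ± 64.4 CPM at 48 h and 875 ± 45.6 CPM at 24 h (log2 fold change 0.35 ± 0.10 SE, adjusted p = 0.024, 0.077 without the block). daf-7, the TGF-beta ligand that sensory neurons release and that prevents dauer formation, had 239.6, 219, 222 and 274 CPM at 48 h, against 152, 148, 165 and 179 CPM at 24 h, without overlap (log2 fold change 0.57 ± 0.16 SE, adjusted p = 0.023). It rose together with din-1, a co-repressor of the nuclear receptor DAF-12, as the 2 called of 22 genes of these pathways (median 0.05). None of these 4 was called with each single library left out. The neuronal marker ric-19 was the 1 called of 10 neuronal markers (adjusted p = 0.022), whose sum was 5066 to 5930.3 CPM at 48 h and 4468 to 4891 CPM at 24 h, without overlap between the times, and the part of that sum in the neuronal rises was not tested.

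Genes of the germline and of small RNA pathways were called only as higher at 48 h. Of 31 genes of P granules and primordial germ cells, 3 rose, none fell and 24 had a positive sign (median 0.21, and 0.11 without TMM factors). car-1, an RNA-binding protein of P granules and P bodies, averaged 181 ± 8.68 CPM at 48 h and 131 ± 4.35 CPM at 24 h, without overlap (log2 fold change 0.47 ± 0.08 SE, adjusted p = 0.00013). glh-2 and glh-4, germline helicases, averaged 15.7 ± 3.12 CPM at 48 h and 10.4 ± 2.80 CPM at 24 h and 17.1 ± 1.34 CPM at 48 h and 12.5 ± 2.55 CPM at 24 h (adjusted p = 0.0083 and 0.037, and 0.23 and 0.23 without the block), so car-1 was the 1 member called without it. Of 41 argonaute and small RNA genes, 4 rose and none fell (median 0.14). Without TMM factors 1 gene of the first list and 2 of the second were called lower. csr-1, an argonaute of germline genes, averaged 33.2 ± 2.23 CPM at 48 h and 23.1 ± 5.17 CPM at 24 h (log2 fold change 0.53 ± 0.12 SE, adjusted p = 0.0021), and ego-1, an RNA-dependent RNA polymerase, averaged 17.2 ± 0.593 CPM at 48 h and 11.2 ± 1.54 CPM at 24 h (log2 fold change 0.62 ± 0.14 SE, adjusted p = 0.0042). dcr-1, the Dicer nuclease, and mut-7 rose by 0.32 ± 0.09 and 0.42 ± 0.13, and neither was called without the block. The 8 germ cell markers summed to 84.3 to 123 CPM at 48 h and 63.8 to 101 CPM at 24 h, and 7 of them had a positive sign. The markers share members with the P granule list, among them glh-2 and the member with the lowest log2 fold change of both (-0.87). The sign counts of these lists are therefore not independent. The part of the markers in these rises was not tested. In the nucleus, the linker histones hil-3 and his-24 were the 2 that fell of 19 histone genes tested (median -0.04), with 92.1 ± 19.8 CPM at 48 h and 135 ± 8.71 CPM at 24 h for hil-3 (log2 fold change -0.55 ± 0.12 SE, adjusted p = 0.002) and 122.4 ± 21.4 CPM at 48 h and 172 ± 21.97 CPM at 24 h for his-24 (log2 fold change -0.48 ± 0.12 SE, adjusted p = 0.0054). lmn-1, the lamin, fell (log2 fold change -0.31 ± 0.08 SE, adjusted p = 0.013), and lin-13, a zinc finger protein of repressed chromatin, rose (log2 fold change 0.46 ± 0.13 SE, adjusted p = 0.02, 0.063 without the block).

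In energy metabolism few genes were called, and the count of falls depended on the scaling. Of 18 glycolysis genes, gpi-1 rose and none fell, although 15 of the 18 had a negative sign (median -0.18), but 8 were called lower and none higher without TMM factors, 4 lower with upper-quartile factors and 6 lower in the fit of the 8 libraries alone. gpi-1, glucose-6-phosphate isomerase, averaged 348 ± 18.8 CPM at 48 h and 286 ± 21.6 CPM at 24 h (log2 fold change 0.28 ± 0.07 SE, adjusted p = 0.012, 0.079 without the block). In trehalose and glycogen metabolism and gluconeogenesis (23 genes, median -0.07), tps-2, a trehalose-6-phosphate synthase, rose to 169 ± 13.2 CPM at 48 h, against 118 ± 6.11 CPM at 24 h (log2 fold change 0.52 ± 0.12 SE, adjusted p = 0.0034), and pck-2, a phosphoenolpyruvate carboxykinase, fell to 1000.01 ± 71.1 CPM at 48 h, against 1256 ± 46.8 CPM at 24 h (log2 fold change -0.33 ± 0.10 SE, adjusted p = 0.036, 0.1 without the block). Of 39 nuclear genes of the respiratory chain (median -0.09, and 11 called lower without TMM factors), cyc-2.1, cytochrome c, was the 1 called, with 692 ± 30.2 CPM at 48 h and 939 ± 64.6 CPM at 24 h (log2 fold change -0.44 ± 0.10 SE, adjusted p = 0.0037). Of 8 genes of the mitochondrial genome tested (median -0.16), MTCE.31 and ND6 fell, with log2 fold changes of -0.70 ± 0.13 and -0.49 ± 0.15. These mRNAs varied between replicates: ND6 had 37.4, 58.03, 80.6 and 42.3 CPM at 48 h, against 49.98, 74.8, 102 and 77.5 CPM at 24 h, and it was not called without the block (adjusted p = 0.41).

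The other lists had few called members. Of 242 nuclear hormone receptor genes 5 rose and 2 fell (median -0.0031), both shares below those of all genes tested. Among the risers, nhr-129 averaged 38.9 ± 2.62 CPM at 48 h and 26.7 ± 4.31 CPM at 24 h (log2 fold change 0.56 ± 0.12 SE, adjusted p = 0.0014). Of 176 F-box A genes 1 rose and 4 fell (median -0.09), of 64 MATH and BATH genes 3 rose and none fell (median 0.04), and of 102 genes of innate immunity 1 rose and 5 fell (median -0.19). Without TMM factors 3 nuclear hormone receptor genes were higher and 9 lower, 13 F-box A genes were lower, and no MATH or BATH gene was higher and 3 were lower. Of 55 homeobox ceh genes ceh-79 fell and none rose (median 0.04). Of 29 cell cycle genes (median 0.07) cki-2, an inhibitor of cyclin-dependent kinases, and cyb-3, a B-type cyclin, fell, with 11.2 ± 2.01 CPM at 48 h and 15.5 ± 2.46 CPM at 24 h for cki-2 (adjusted p = 0.017) and 9.68 ± 3.58 CPM at 48 h and 18.1 ± 12.15 CPM at 24 h for cyb-3 (adjusted p = 0.04), and neither was called with each single library left out. Of 30 DNA replication genes (median 0.07) pola-1, the catalytic subunit of polymerase alpha, and rpa-2 rose, and neither was called without the block. Of 26 citric acid cycle genes (median -0.0009, and 8 called lower without TMM factors) idhb-1 rose and pdhb-1 and dlst-1 fell, of 64 mitochondrial ribosomal protein genes (median 0.02) mrps-17 rose and mrps-33 fell, and of 36 genes of cilia and sensory neurons (median 0.12) osm-12 rose. In the list of maternal RNA-binding proteins (25 genes tested, median 0.13) cpg-1 rose, a marker of adult hermaphrodites and oocytes rather than an RNA-binding protein gene. None of these 7 was called without the block. None of 12 RNA polymerase II subunit genes was called (median 0.13). Apart from the cyp-13A genes, the calls named above that were not made without the 24 h library of replicate 8 were those of aars-2, hars-1, wars-1, sti-1, hsp-6, pdi-3, lgg-2, zipt-7.2, zipt-9, col-91, col-146, col-147, pqn-13, pqn-31, pqn-83, pqn-87, ptr-11, cyb-3, cki-2, act-2, act-3, act-4, dim-1, dod-6, dao-3, unc-13, ida-1, din-1, nlp-7, nlp-51, glh-4, dcr-1, mut-7, lin-13, pck-2, ND6, rpa-2, pdhb-1, mrps-17 and osm-12.

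**Figure D3:**
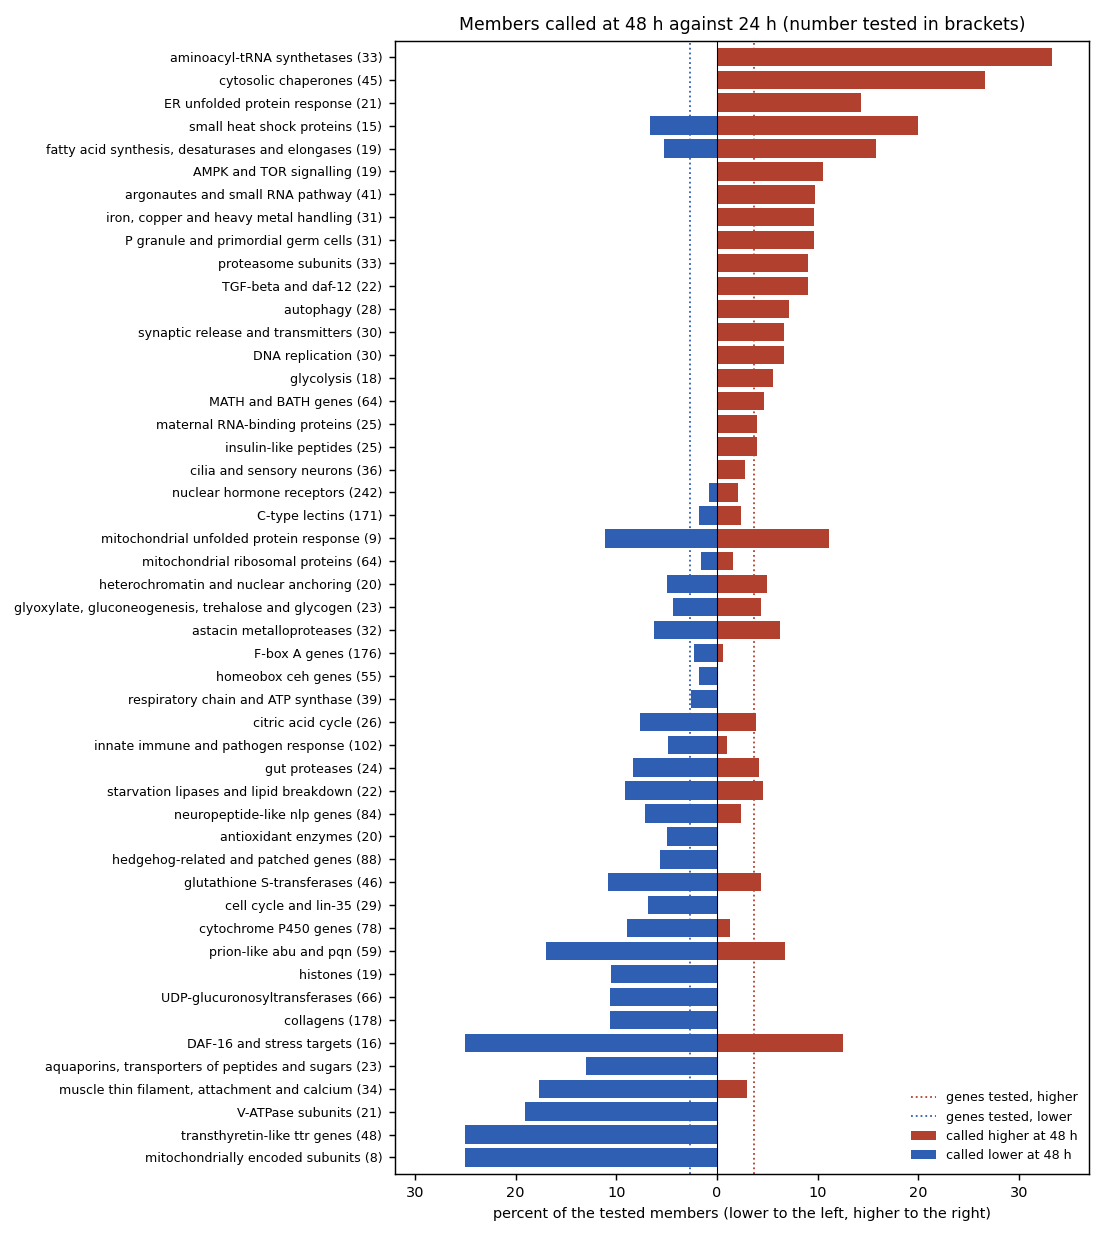
Bars give the percent of the tested members of each gene list called higher (red, to the right) or lower (blue, to the left) at 48 h, for the lists with at least 1 called member, with the number tested in brackets, and dotted lines give the shares of all genes tested (3.67% higher, 2.71% lower). Aminoacyl-tRNA synthetases (11 of 33) and cytosolic chaperones (12 of 45) have the longest bars of rises, and transthyretin-related genes (12 of 48) and collagens (19 of 178) have falls and no rises.

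Whether the genes of the second day also moved at other times was examined in libraries that the comparison did not use. The steps from 6 h to 12 h and from 96 h to 192 h each double the time in arrest, as does the step from 24 h to 48 h, and 96 h against 12 h spans the second day from outside. Of all genes tested, 9.94% were called higher and 9.5% lower at 12 h against 6 h, 23.1% and 21.3% at 96 h against 12 h, and 10.4% and 8.48% at 192 h against 96 h. Of the 634 genes that rose over the second day, 381 were called higher and 18 lower at 12 h against 6 h, and 247 higher and 25 lower at 192 h against 96 h. At 96 h against 12 h, 611 of them were called higher and 1 lower. Of the 468 genes that fell, 142 were called lower and 62 higher at 12 h against 6 h, and 202 lower and 44 higher at 192 h against 96 h. At 96 h against 12 h, 455 were called lower and none higher. By sign alone, 88.8% of the 634 were positive at 12 h against 6 h and 82.0% at 192 h against 96 h, against 34.8% and 23.1% of the 468 and 49.2% and 48.4% of all genes tested. Leaving 24 h and 48 h aside, the highest mean of the rising genes was at 96 h, 192 h or 288 h for 76, 330 and 196 of the 634. As shares these were 12%, 52% and 31%, against 10%, 12% and 24% of all genes tested, so 192 h stood out most. The share at 96 h was close to that of all genes. The highest mean of the falling genes was at 96 h or 192 h for none of the 468. It was at 288 h for 19 of them (4%, against 24% of all genes tested).

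**Figure D4:**
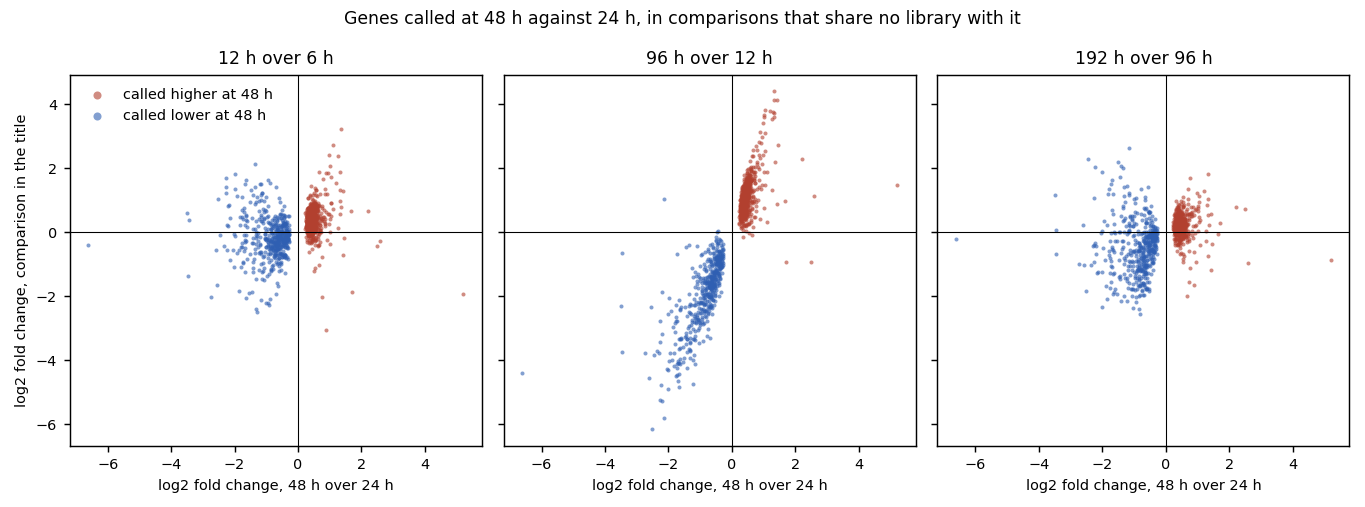
Each point is a gene called at 48 h against 24 h (red higher, blue lower), with its log2 fold change of 48 h over 24 h on the x axis and its log2 fold change in the comparison named above each panel on the y axis. In the middle panel, 96 h over 12 h, 629 of the 634 red points are above 0 and 2 of the 468 blue points are. At 12 h over 6 h and 192 h over 96 h, points of both colours fall on both sides of 0. Above 0 there are 563 and 520 of the red points, in that order, and 163 and 108 of the blue points.

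The size of the change over the second day was also tested directly against the other doublings of time. Over all genes tested, 1102 (6.39%) differed between the step from 24 h to 48 h and the step from 96 h to 192 h, and 1208 (7.0%) between it and the step from 6 h to 12 h, at an FDR under 0.05. The count of 1102 happens to equal that of the main comparison, but only 228 genes are in both. Among the 29 genes with the largest changes or the smallest p over the second day, 5 differed from the later step and 14 from the earlier one. Some of them kept the same direction at all 3 steps. hsp-90 had log2 fold changes of 0.64 ± 0.09 at 12 h against 6 h and 0.55 ± 0.09 at 192 h against 96 h, neither different from the 0.88 ± 0.09 of the second day (adjusted p = 0.29 and 0.096). aak-1 had 0.58 ± 0.13 and 1.23 ± 0.12, again with no difference called (adjusted p = 0.2 and 0.52). fat-6 had a larger rise at 12 h against 6 h (1.66 ± 0.13) than over the second day (adjusted p of the difference = 0.0011), as did lmd-4 (2.41 ± 0.24, adjusted p of the difference = 0.0012). cct-6 had a smaller rise at 192 h against 96 h (0.19 ± 0.07) than over the second day (adjusted p of the difference = 0.0079). These genes were picked by their change over the second day, so the size of that change is likely overstated in the differences.

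For other genes the steps differed in size or in direction. lron-2 was higher at 12 h than at 6 h (0.83 ± 0.26) and fell over the second day, a difference of -3.04 ± 0.42 on the log2 scale (adjusted p = 2.0e-06). bcf-1 had -0.34 ± 0.15 at 12 h against 6 h, which was not called, and -1.75 ± 0.17 at 192 h against 96 h, about as much as over the second day (adjusted p of the difference = 1.00). mup-4 had -0.12 ± 0.13 at 12 h against 6 h and differed from it over the second day (adjusted p = 2.9e-05). pgp-6 fell over the second day and was higher at 192 h than at 96 h (1.19 ± 0.35), a difference of -2.84 ± 0.47 (adjusted p = 4.8e-05). Its mean was 63.3 CPM at 12 h, 17.6 at 24 h, 5.35 at 48 h, 3.30 at 96 h, 8.03 at 192 h and 28.4 at 288 h. abu-14 had 0.04 ± 0.36 at 192 h against 96 h (adjusted p of the difference = 0.0036), by which time it was at 6.78 CPM, against 1193 CPM at -2 h. mtl-2 rose over the second day and had -0.17 ± 0.22 at 192 h against 96 h (adjusted p of the difference = 0.044).

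**Figure D5:**
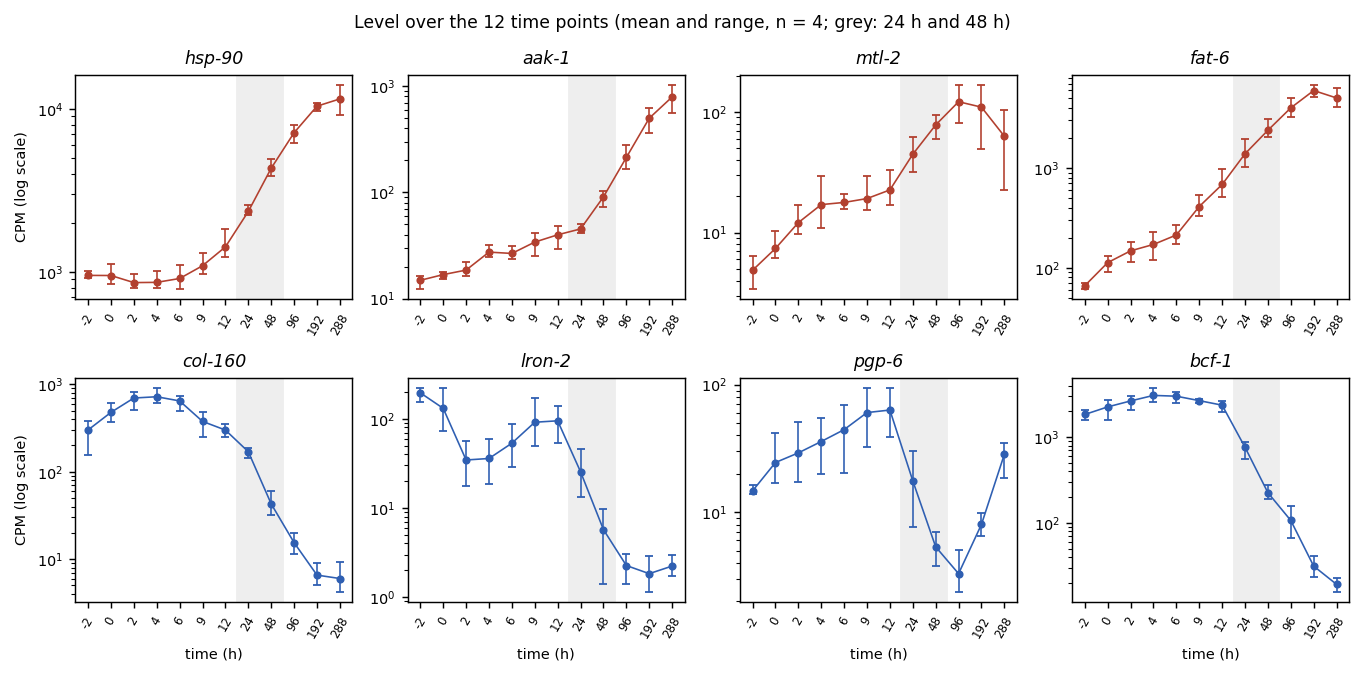
Mean CPM on a log scale of 8 genes over the 12 time points, with bars for the lowest and highest of 4 libraries and the 24 h and 48 h time points in grey. The time points are evenly spaced on the axis although the hours between them are not. hsp-90 and aak-1 have their highest mean at 288 h (11539 and 789 CPM), col-160 and bcf-1 continue down after 48 h, and pgp-6 has its lowest mean at 96 h (3.30 CPM).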

How the data were processed

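The deposited files were raw counts of reads per gene, 1 table per library. The RNA was polyA RNA per the labels. Per the study's methods, the authors sequenced single-end reads, mapped them with bowtie to the WS210 genome release, keeping reads with up to 2 locations, and counted genes with HTSeq. Versions and the strand setting were not given in the sources used here, so overlapping genes and close copies are uncertain. Each table held 44968 genes and 5 totals of unassigned reads, which took 21.1 to 27.9% of the reads of the 8 libraries and were left out, as were 22 ribosomal RNA genes. Symbols came from a current RefSeq annotation by sequence name (43592 matched), or from Ensembl (851). No coordinates are given, since the builds differ.

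Genes with more than 1 CPM in at least 4 of the 48 libraries were kept. Counts were scaled with TMM factors, and all 48 libraries were fitted together in edgeR 4.0.16 (R 4.3.3) with the time point and the replicate number as terms. Time points were compared with the quasi-likelihood F test, two-sided, Benjamini-Hochberg adjusted over all genes tested within a comparison, at a threshold of 0.05. The study itself used a likelihood ratio test in edgeR, which is an alternative here. The SE of a log2 fold change is its size divided by the square root of F. Means are given with the SD over 4 libraries. Where cultures were shared is not known for each number, so p-values measure the spread between these libraries. Replicate numbers were kept as a block because the methods describe cultures sampled over time, and a check bore on it: after each time point's mean was removed, the 24 h and 48 h libraries of the same number had correlations of 0.24, 0.32, 0.46 and 0.14 across 8074 genes, and those of different numbers had -0.35 to 0.050. Removing a mean of 4 libraries pushes the values of different numbers down when those of the same number are positive. The gap between them is therefore overstated. The common coefficient of variation was 0.139 with the block and 0.188 without it. No molecular identifiers were used, and the precision of low levels is limited by the counts per library.

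Genes named were the 12 largest rises and 12 largest falls, the 5 smallest p in each direction and up to 4 members per direction of 68 lists, all among genes that had a symbol, passed the threshold, averaged at least 10 CPM in the 8 libraries and moved 1 way in all 4 pairs. Members below 10 CPM and members that were not called were named after their values were seen, to complete a list. The comparison, its lists and the outside comparisons were chosen with earlier results of these data known, and 1 list (mitochondrially encoded subunits) was added after the tables were read. A list is described by its counts and median, with no test of the list, and the shares and median of all genes tested are given once. Alternatives were DESeq2 1.42.0 (its test and its size factors), upper-quartile and no scaling factors, ribosomal RNA kept in the totals, other filters, no replicate block, the 8 libraries alone, and leaving out each replicate number or library. The fits were tested on simulated data first.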

Additional observations from a re-analysis of the deposited data

Results flagged for a closer look

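In 314 sets of 4 libraries (151 named genes and 6 library measures at each of both times), the highest or lowest library stood apart from the other 3 by more than Dixon's 95% limit in 15. Chance flags about 1 set in 20. At 48 h, these were replicate 5 for col-159 (18.1 CPM, against 9.10 to 9.89 in the others), replicate 8 for csr-1 (29.9), lin-13 (372) and cyp-34A8 (15.6), replicate 6 for clec-264 (57.4) and ttr-45 (10.3), and replicate 1 for mut-7 (22.2 CPM). At 24 h, they were replicate 6 for mup-4 (111 CPM, against 68.6 to 73.3 in the others) and pqn-59 (2081), replicate 5 for nas-39 (13.2), and replicate 8 for cyp-13A5 (20.7), dcr-1 (88.2) and dao-3 (37.4 CPM). The 48 h library of replicate 6 had 8.28% ribosomal RNA, against 2.66 to 3.32% in the other 48 h libraries, and 78.4% of its reads aligned, against 82.2 to 82.7%. The 24 h library of replicate 8, with 29.2% ribosomal RNA, did not pass this rule because the other 24 h libraries differed too.

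For 29 leading genes the change over the second day was set against other doublings of the time in arrest by a test of the difference. It was more negative than at 12 h against 6 h for lron-2 (difference -3.04 on the log2 scale), lips-15 (-2.19), pgp-6 (-2.16), abu-14 (-1.95), bcf-1 (-1.41), gfi-1 (-1.37), col-42 (-1.33), tag-293 (-1.23), mup-4 (-1.16), col-160 (-0.91), col-80 (-0.85) and col-98 (-0.81), and, among genes that rose, for lmd-4 (-1.44) and fat-6 (-0.86). Against 192 h over 96 h, it was more negative for pgp-6 (-2.84), abu-14 (-2.04) and col-159 (-1.22), and more positive for mtl-2 (1.02) and cct-6 (0.39). These tests share the second-day libraries, and the genes were picked by their change in them.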

How the results depend on the processing

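Of the 1102 calls, 565 were also called without the replicate block (335 higher, 230 lower, with 89 at least 2-fold lower), and no other gene was. The pairing by replicate number is described with the methods. Without the block, the difference from 192 h over 96 h was called for 557 genes (331 positive, 226 negative) and that from 12 h over 6 h for 704 (373 positive, 331 negative). The 8 libraries alone with the block gave 2007 calls (1092 higher, 915 lower) with 3 residual degrees of freedom, against 33 in the fit of all libraries. Without TMM factors 331 genes were higher and 947 lower, with 16 at least 2-fold higher. At a mean of at least 10 CPM, with 8658 genes tested and 1342 called, the 2-fold calls were 7 higher and 97 lower. Without a filter on low counts 440 were higher and 664 lower. DESeq2's test called 784 higher and 683 lower, and the likelihood ratio test 725 higher and 576 lower. Leaving out 1 library or 1 replicate number gave 451 to 895 calls, 254 to 527 higher and 197 to 427 lower, and 15 to 31 at least 2-fold higher and 88 to 157 at least 2-fold lower. The lowest count was without replicate 8, and without replicate 1 there were 582. Leaving out a replicate number gave 2307 to 2737 calls at 12 h against 6 h (1111 to 1366 higher, 1196 to 1373 lower), 2136 to 2692 at 192 h against 96 h (1149 to 1346 higher, 987 to 1346 lower), 505 to 990 for the difference from 192 h over 96 h (282 to 561 positive, 223 to 429 negative) and 630 to 937 for that from 12 h over 6 h (346 to 469 positive, 268 to 468 negative). The causes of these shifts were not tested.

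Of the 151 named genes, 56 were called under all 23 alternatives, and none changed sign under any. Of the 29 leading genes 27 were called under all, the exceptions being dach-1 (1 alternative) and mtl-2 (7). Low counts limit genes near 1 CPM, and a call that is missing there does not show that the gene did not change. The alternatives that leave out 1 of the other 7 libraries, and the 8 libraries alone without the block (644 higher, 511 lower), were chosen after seeing the data.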
